A study of Canis lupus familiaris with 20 samples.

Results

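The MX genes of the dog, MX1 and MX2, were followed through co-cultures of canine mammary cancer cells with macrophages. Members were the array probes whose RefSeq accession carries either symbol in the gene table. Of the 2 MX genes, 1 could be measured: MX1 had 2 probes among 43603 distinct probes (of which 1648 carried a symbol, for 1045 symbols), while no probe was matched to MX2, which is therefore not analysed here. Both MX1 probes, A_11_P0000019855 (the brighter) and A_11_P051206 (the dimmer), are listed on the array under NM_001003134. In the gene table of the dog assembly UU_Cfam_GSD_1.0 the protein-coding neighbours of MX1 are MX2 on the near side and TMPRSS2 on the far side. The array was designed on another build, so no position is given.

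MX proteins are dynamin-like GTPases that assemble around the nucleocapsids of incoming viruses and stop their replication. They are hardly made in resting cells and are induced when type I or type III interferon binds its receptor and JAK kinases pass the signal on to the interferon-response elements of the MX promoters. MX1 is for this reason widely used as a readout of interferon exposure, in epithelial cells as in monocytes and macrophages.

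The cancer cells were 5 established canine lines: P114 from an anaplastic cancer, CMT-W1 and CMT-W2 from adenocarcinomas, CMT-U27 from a simple carcinoma and CMT-U309 from a spindle-cell tumour. Macrophages were grown from CD64-positive blood monocytes of healthy dogs without added growth factors, and the study describes them as partly differentiated. Each line, stained with the red tracker CMTMR, was kept for 72 h with the macrophages and the cells were then separated by flow sorting into stained cancer cells and unstained macrophages, and each sorted population was hybridised against its matching mono-culture, on 20 two-colour arrays (10 per cell type). Neither culture received a drug, a cytokine or a genetic change. By the study's methods the co-cultures were harvested with trypsin before sorting, whereas the mono-cultures were washed and scraped. Co-culture and way of harvest therefore cannot be told apart in any ratio. The 2 arrays of a pair exchange the dyes between the same RNAs and were counted as 1 replicate, which leaves n = 5 per cell type with the 5 lines as replicates. How many separate macrophage mono-cultures stand behind the 5 macrophage pairs is not stated, so the error of the macrophage values may be partly technical.

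Between 51.0% and 96.3% of spots exceeded background clearly in the co-culture channel of the cancer cell arrays, and between 54.5% and 74.7% in that of the macrophage arrays. On 1 array of CMT-U309 9870 spots carried an outlier mark and were left out, neither MX1 probe among them on any array. The number of arrays limits the precision. In mono-culture all 11 matched macrophage markers (such as CD163, FCGR1A and CTSS) were higher in the macrophages than in the cancer cells, by a median of 7.65 on the log2 scale, whereas of the 5 tested markers of mammary epithelium 2 (CLDN3 and TJP1) were higher in the cancer cells. After sorting, 0 of the 11 macrophage markers were called between the 2 populations of the co-cultures, with a median difference (macrophage minus cancer cell) of -0.32. Their estimates ran from -2.04 for C5AR1 to 1.25 for TYROBP, so the absence of a call does not show equal levels. Over all probes, 5 of 29102 (0.0172%) were called between the sorted populations by limma at an adjusted p under 0.05 (1283 at an unadjusted p under 0.05), against 8864 (30.5%, of which 18.2% of the tested probes were higher in macrophages) between the mono-cultures. In the cancer cells themselves 10 of the 11 macrophage markers rose in co-culture, beside 6.74% of all probes called higher. In the macrophages 10 of the 11 fell, beside 26.7% of all probes called lower.

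The first question was how the MX1 signal of the cancer cells changed with the macrophages beside them. MX1 rose in all 5 lines. At the brighter probe the log2 ratio of co-culture to mono-culture was 6.51 in CMT-W2, 5.22 in CMT-U27, 4.37 in CMT-U309, 4.17 in P114 and 3.86 in CMT-W1. All 10 single arrays lay above 0, between 3.32 and 6.74. CMT-W2 stood highest among the lines with a mono-culture signal well above background, whereas the value of CMT-W1 is a lower bound and has no place in the order. The mean was 4.83 ± 1.07 (SD, n = 5), a 28.4-fold difference, with a standard error of 0.40 and an adjusted p of 0.00125 in limma. Among the 28269 probes tested in the cancer cells, 3754 (13.3%) were called, 6.74% higher and 6.54% lower, and the median ratio of all of them was -0.02 on the log2 scale. The brighter MX1 probe ranked 81 from the top by mean ratio, with CMT-W1 at its bound. MX1 is among the genes that the study listed from these same arrays, so its direction here is not independent evidence.

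Weak mono-culture signals limit some of these folds. The brighter probe was well above background in the mono-culture channel on 8 of 10 cancer cell arrays and in the co-culture channel on all 10. Both missing arrays are those of CMT-W1, so that line's value is a bound, at least 14.5-fold. The dimmer probe gave log2 ratios of 7.17 in CMT-W2, 5.77 in CMT-U27, 5.28 in P114, 4.27 in CMT-U309 and 3.83 in CMT-W1, with a mean of 5.27 ± 1.32 (SD, n = 5) and an adjusted p of 0.00166 in limma. Its mono-culture channel was well above background on only 3 of 10 arrays. For P114 the dimmer probe therefore shows at least 19.6-fold, for CMT-W1 at least 4.27-fold and for CMT-W2 at least 61.1-fold, computed against the higher of the probe's own mono-culture signal and the weakest signal well above background on that array. With these 3 lines at their bound, the mean over the 5 lines was 4.47 on the log2 scale. The 2 probes differed by a root mean square of 0.49 over the 10 co-culture ratios. Between the dyes of a pair the brighter probe differed by 0.29 to 1.08 in the cancer cells, most for CMT-W1, and by 0.07 to 0.28 in the macrophages.

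Leaving out any of the lines kept the rise, with means of 4.41 to 5.07 at the brighter probe. The call was lost with another background correction followed by loess (3.49, adjusted p = 0.0513) and with the methods' t-test (adjusted p = 0.127, a setting in which only 6 probes were called at all, all of them higher). The dimmer probe moved further, to 2.45 with that background correction and loess (adjusted p = 0.0583) and to 2.76 with median centring in place of loess (adjusted p = 0.0440), and it too lost its call with the methods' t-test (adjusted p = 0.127).

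**Figure D1:**
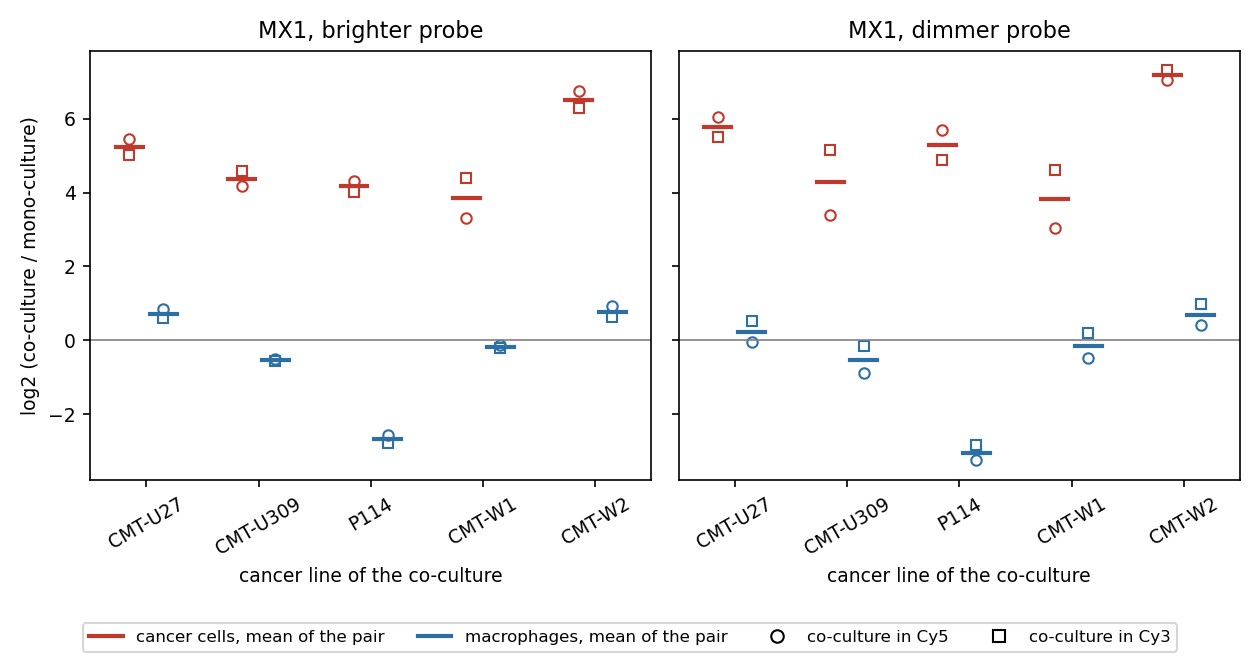
MX1 log2 ratio of co-culture to mono-culture (vertical axis) for the 5 co-cultures (horizontal axis), with the brighter probe on the left and the dimmer on the right. Each open symbol is 1 array, with the co-culture in Cy5 (circles) or Cy3 (squares), and each bar is the mean of a dye-swap pair. All 10 cancer cell arrays lie above 0 at both probes, while the macrophage pairs lie on both sides of 0 with P114 lowest, at -2.67 for the brighter probe.

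The second question was the same for the macrophages. Here MX1 did not move in a common direction. At the brighter probe the log2 ratio was 0.72 with CMT-U27, -0.53 with CMT-U309, -2.67 with P114, -0.18 with CMT-W1 and 0.78 with CMT-W2. Macrophages grown with CMT-U27 and CMT-W2 were above their mono-culture, and those grown with P114 far below it, on both arrays of the pair (-2.79 and -2.55). The mean was -0.38 ± 1.40 (SD, n = 5), with a standard error of 0.50 and an adjusted p of 0.554 in limma. At the dimmer probe it was -0.56 ± 1.46 (SD, n = 5), adjusted p = 0.392. Without P114 the mean at the brighter probe turned to 0.20 and at the dimmer to 0.06, neither called. In this comparison 48.7% of 28508 probes were called, 22.1% higher and 26.7% lower, so that MX1 missed a threshold that nearly as many probes passed as did not. A p above the threshold does not show that MX1 stayed the same, since the 5 co-cultures spread over 3.45 log2 units.

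The ratio of MX1 differed between the cell types. Macrophage minus cancer cell, it was -5.21 at the brighter probe (SE 0.69, adjusted p = 0.000243 in limma) and -5.83 at the dimmer (adjusted p = 0.000219). Both use the measured ratios, although CMT-W1 at the brighter probe and 3 cancer lines at the dimmer give only bounds. With those 3 lines at their bound the cancer cell mean of the dimmer probe was 4.47, against 5.27 as measured. The 5 cancer cell ratios lay above the 5 macrophage ratios without overlap, and the share of all probes that do so is not given here. Of 29629 probes tested for this difference, 32.5% were called and 17% were called lower in macrophages, and the brighter MX1 probe ranked 362 from the bottom. The arrays lay on 5 slides, of which a single one held both cell types. On that slide the ratio was 3.86 for CMT-W1 cancer cells and 0.72 for macrophages grown with CMT-U27, a difference of -3.14. With the slide as a fixed block the estimate was that same -3.14 (adjusted p = 0.412), and no probe of the 29629 was called in that fit (4039 at an unadjusted p under 0.05). Slide and cell type can thus be told apart only through 1 pair of each.

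A further question was where MX1 stood in absolute signal. Levels are log2 normalized signals of a single dye channel, averaged over both dyes, and are compared only within a probe. In macrophage mono-cultures the brighter probe read 14.1 on the array pairs of CMT-U27 and CMT-W2, 14.2 on that of CMT-U309 and 14.3 on those of P114 and CMT-W1, a mean of 14.2 ± 0.12 (SD, n = 5). In cancer cell mono-cultures it read 10.2 in CMT-U27, 8.77 in CMT-U309, 7.70 in P114, 7.52 in CMT-W2 and 7.40 (not well above background) in CMT-W1, a mean of 8.32 ± 1.20 (SD, n = 5). Macrophages without any cancer cell therefore carried far more MX1 signal than any line, and CMT-U27 carried the most among the lines. The difference of the mono-cultures was 5.86 at the brighter probe (adjusted p = 7.02e-06 in limma), and this probe ranked 260 from the top of 29102 probes. The dimmer probe was called in the same direction (adjusted p = 2.58e-06), but its cancer cell mono-cultures were well above background on only 3 of 10 arrays, so no size is given for it.

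In co-culture the levels of the cancer cells were 15.5 in CMT-U27, 14.0 in CMT-W2, 13.1 in CMT-U309, 11.9 in P114 and 11.3 in CMT-W1, a mean of 13.2 ± 1.68 (SD, n = 5). Those of the macrophages were 14.8 with CMT-U27, 13.6 with CMT-U309, 11.6 with P114, 14.2 with CMT-W1 and 14.8 with CMT-W2, a mean of 13.8 ± 1.34 (SD, n = 5). The macrophage level exceeded that of the cancer cells sorted from the same culture in 3 of 5 co-cultures, by 2.90 with CMT-W1 (7.46-fold) and by 0.50 and 0.80 with CMT-U309 and CMT-W2. It was below it by 0.65 with CMT-U27 and by 0.29 with P114. The mean difference of 0.65 was not called (adjusted p = 0.999 in limma, and 0.728 with the line as a replicate block), and without CMT-W1 it was 0.09. By mean level the order was macrophage mono-culture, macrophage co-culture, co-cultured cancer cells and cancer cell mono-culture. Neither the 2 macrophage cultures nor the 2 co-cultured populations differed from each other beyond their spread, and the last step, between the cancer cell cultures, is the rise of 4.83 given above.

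**Figure D2:**
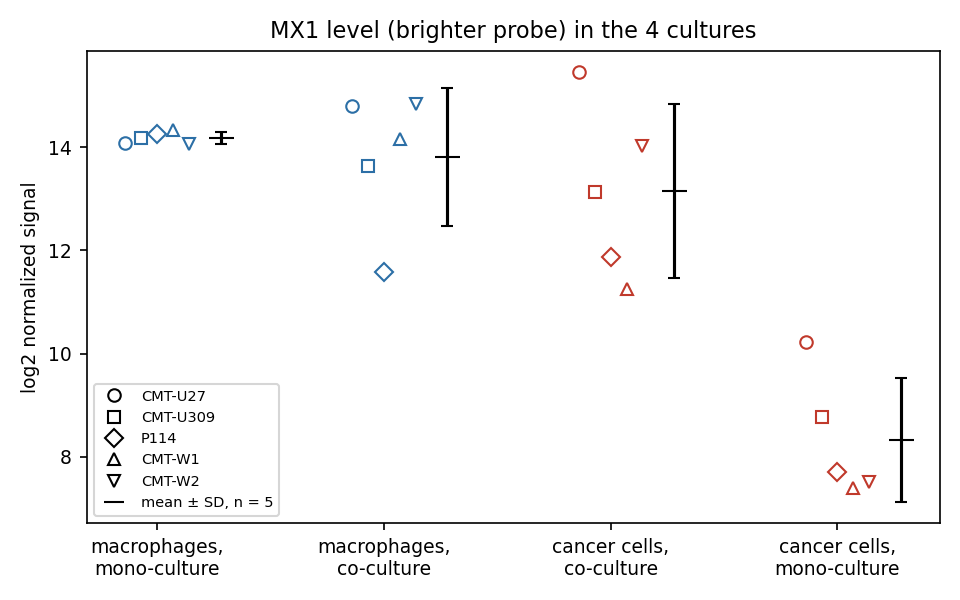
Log2 normalized signal of the brighter MX1 probe (vertical axis) in the 4 cultures (horizontal axis), with a symbol per cancer line and the mean ± SD of 5 values in black. The macrophage mono-cultures sit together at 14.1 to 14.3, the cancer cell mono-cultures between 7.40 and 10.2, and both co-cultured populations spread between them and above, from 11.3 to 15.5.

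Because macrophage markers rose in the sorted cancer cells, MX1 was set beside them on a common scale, the level as a percentage of that gene's mean in macrophage mono-cultures. In bulk RNA, fewer cells of a type and less RNA per cell cannot be told apart. In co-cultured CMT-U27 cells MX1 stood at 242% and the 11 markers at 13.3% to 156% (median 56.8%). In co-cultured CMT-U309 cells it stood at 48.6% and the markers at 4.95% to 31.1% (median 13.6%). The same was so for P114, with 20.2% against 1.91% to 9.21% (median 4.46%). CMT-W1 gave 13.2% against 0.162% to 8.18% (median 2.41%), and CMT-W2 gave 90.1% against 2.91% to 34.9% (median 9.42%). In each of the 5 lines, then, MX1 was above all 11 markers on this scale, and the dimmer probe was too. The order depends on mono-cultured macrophages as the reference. Between the co-cultured populations the log2 difference, macrophage minus cancer cell, was 0.65 for MX1 and -0.32 for the median marker. Of the 11 markers 4 lay above 0 there, and none of these differences was called. On the mono-culture scale the interferon-induced genes OAS1, OAS2 and EIF2AK2 were also above all 11 in CMT-U309, P114 and CMT-W2, but not in CMT-U27 or CMT-W1. OAS1 stood at 38.5%, 44.8% and 53.0% in the former lines. OAS3 went otherwise. It was above all 11 in P114 (76.1%) and CMT-W1 (9.47%), but not in CMT-U27 (100%), CMT-U309 (18.1%) or CMT-W2 (22.6%). In P114, OAS2 and EIF2AK2 already stood at 62.1% and 86.6% in mono-culture, and OAS3 at 65.5%. In CMT-U309 mono-culture these 3 genes stood at 57.7%, 63.3% and 38.6%, and OAS2 was lower in co-culture, at 41.7%. CMT-U27 was the highest and CMT-W1 the lowest for MX1 and for the median marker alike. In cancer cell mono-culture MX1 stood at 0.909% to 6.47% of the macrophage level and the median marker at 0.274% to 1.69%. The levels of the macrophage markers were also summed on the linear scale. The log2 of that sum in the cancer cells ran from 11.8 to 14.8 in mono-culture and from 14.3 to 19.1 in co-culture. In macrophage mono-culture it ran from 19.5 to 19.9. The part of macrophage RNA in the MX1 ratio of the cancer cells was not tested. Without CMT-U27, the line whose sorted cells carried the most marker signal, the MX1 mean was 4.73 (adjusted p = 0.00822 in limma). Macrophage markers rose in the remaining lines too (CTSS by 5.28 to 6.81, whereas CYBB was not called over the 5 lines). This leave-out therefore does not test the part of macrophage RNA.

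In the co-cultured macrophages 10 of 11 markers fell, beside 26.7% of all probes called lower, and MX1 was not called. MX1 stood at 154% with CMT-U27, 68.6% with CMT-U309, 98.6% with CMT-W1 and 157% with CMT-W2, where the median marker stood at 17.4%, 23.6%, 5.19% and 4.37%. With P114 MX1 stood at 16.5%, beside a median marker of 6.51%. A marker exceeded MX1 once with CMT-U309 (72.0%) and once with CMT-W2 (181%), and in the other 3 co-cultures none did. At their brightest probes, markers of the cancer cell side did not move together on the same arrays. Of 4 mesenchymal markers tested 1 was called, CAV1 (caveolin-1), which rose in the co-cultured macrophages by a mean of 5.83 ± 0.72 (SD, n = 5, adjusted p = 7.95e-05 in limma) from a mono-culture signal well above background on 5 of 10 arrays. COL1A1, COL1A2 and PDGFRB had means of 0.37, 0.60 and 0.07 and were not called. Another COL1A1 probe was called higher (3.11, adjusted p = 0.0116 in limma), while its remaining probes were not called (-0.11 and -0.39). Other COL1A2 probes were called higher at 3.78, 3.92 and 4.25 (adjusted p of 0.00621, 0.00429 and 0.00537) and were not called at 1.18 and 1.25. Of 4 epithelial markers tested TJP1 rose by 1.74 (adjusted p = 0.0145), ERBB2 fell by 0.74 (adjusted p = 0.0471), and CLDN3 and MUC1, at -0.23 and 0.60, were not called. The part of cancer cell RNA in the MX1 ratio of the macrophages was not tested.

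**Figure D3:**
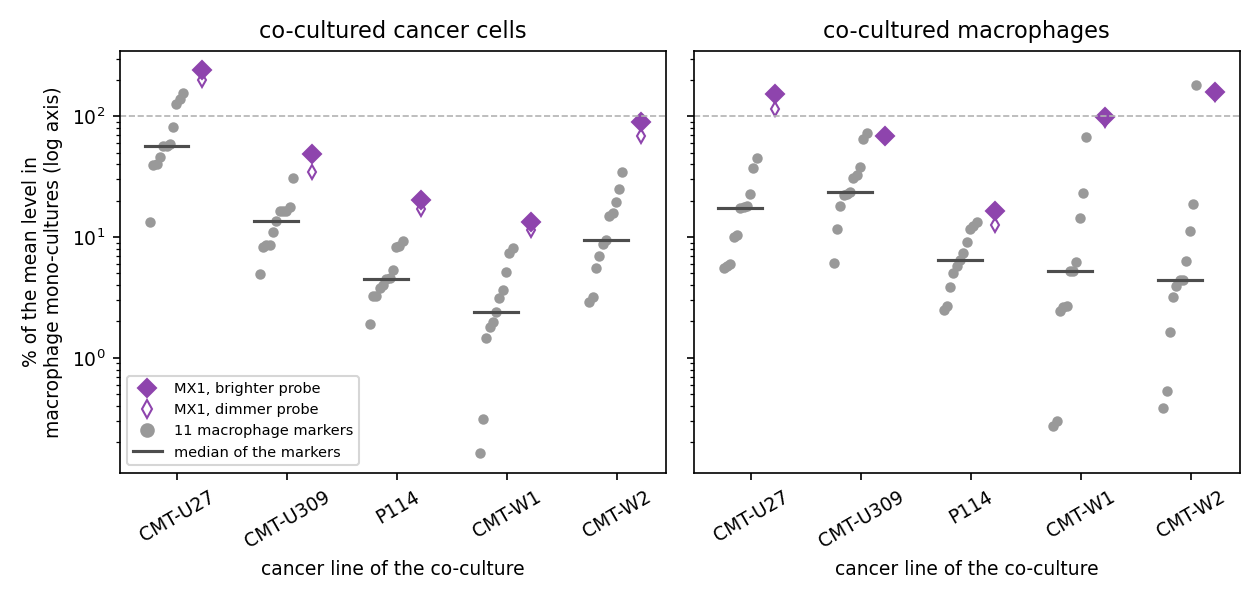
Level of MX1 (diamonds) and of 11 macrophage markers (grey points, bar at their median) in each co-culture as a percentage of the gene's mean level in macrophage mono-cultures, on a log axis, for sorted cancer cells (left) and sorted macrophages (right). On the left MX1 lies above all 11 markers in every line, from 13.2% to 242% at the brighter probe, and on the right above the median marker in every co-culture.

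The other genes of the interferon pathway were listed by role, and 19 of the genes reported were matched to a probe by symbol, of which 18 passed the filter on dim probes. In the cancer cells 8 of the 18 rose, 1 fell and 9 did not pass, with a median log2 ratio of 2.53, where 6.74% of all probes were called higher and 6.54% lower. With the other background correction and loess only CCL8, DLA88 and DLA-64 were still called (3 genes), while PSMB8 (2.42, adjusted p = 0.0643), PSMB9, OAS1, DLA-DRA and IFNB1 were not. In the macrophages 2 rose, 8 fell and 8 did not pass, with a median of -0.97, where the median of all probes was -0.12 and 22.1% of them were called higher and 26.7% lower. The falls came to 4 with median centring (SOCS3, IFNA7, DLA88 and DLA-64) and to 4 with no filter on dim probes (SOCS3, IFNA7, OAS3 and TAPBP). For the difference of the ratios 12 of 18 were called, all lower in macrophages, beside 17% of all probes called lower. Of the 8 that rose in cancer cells, 7 were also called higher in macrophage than in cancer cell mono-cultures, as MX1 was. The exception was IFNB1. Of all 18 pathway genes 14 were called higher in macrophage mono-cultures, beside 18.2% of all probes.

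Interferon ligands open the pathway. IFNB1, interferon beta, was not well above background in any mono-culture channel, of cancer cells or of macrophages. In co-culture it was well above background on 9 of 10 cancer cell arrays and 6 of 10 macrophage arrays. The measured log2 ratios of the cancer cells were 5.43 in CMT-U309, 4.69 in CMT-W2, 2.72 in CMT-W1, 2.31 in CMT-U27 and 1.93 in P114, with a mean of 3.42 (adjusted p = 0.0137 in limma). As bounds these come to at least 3.43-fold over the 5 lines, lowest for P114 (1.36-fold) and highest for CMT-U309. In macrophages the measured mean was 2.33 (adjusted p = 0.0183), and the 3 co-cultures with a signal in the co-culture channel (CMT-U27, CMT-U309 and P114) gave bounds of at least 1.73-fold to 7.56-fold. It was the only gene of the list to rise in both populations. Its call was lost with another background correction, where the mean was 0.69 after loess (adjusted p = 0.102) in the cancer cells and 0.35 (adjusted p = 0.102) in the macrophages, and without CMT-U27, CMT-U309 or P114 it no longer passed the filter in macrophages. IFNA7, an interferon alpha, fell in macrophages by 1.17 (adjusted p = 0.00787 in limma) and had a mean of -0.80 in cancer cells (adjusted p = 0.115). IFNG, the type II interferon, did not pass the filter in either cell type. None of the 6 listed interferon receptors was matched to a probe by symbol, and they were not analysed here.

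Of the signalling genes only SOCS3, an inhibitor of JAK kinases that cytokines induce, was matched to a probe. In macrophages its mean ratio was -1.48 (adjusted p = 0.00231) and in cancer cells -0.84 (adjusted p = 0.0432), the latter a call that was lost whichever line was left out. Among the nucleic acid sensors, TLR7 (an endosomal receptor for single-stranded RNA) and MAVS (the mitochondrial adaptor of the RIG-I-like receptors) fell in macrophages, with means of -1.79 (adjusted p = 0.0137) and -1.02 (adjusted p = 0.0263), the latter call lost without any line but CMT-W1. TLR9, the receptor for CpG DNA, was not called there (adjusted p = 0.0699), and none of the 3 was called in cancer cells.

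The antiviral genes stand nearest to MX1 in function, and 4 of 43 listed were matched to a probe. OAS1, a synthase of 2'-5' oligoadenylates that is switched on by double-stranded RNA, rose in the cancer cells by a mean of 3.39 ± 1.17 (SD, n = 5, adjusted p = 0.00707 in limma). Its values ran from 1.98 for CMT-U309 to 4.36 for CMT-W1. In macrophages OAS1 fell by 0.87 (adjusted p = 0.0355, a call lost without any line but CMT-W1), and its difference between the cell types was -4.26 (adjusted p = 0.000186). OAS2, OAS3 and EIF2AK2 (the kinase PKR) had positive means in cancer cells of 2.65, 0.79 and 1.22 with adjusted p of 0.0663, 0.291 and 0.0816, so that they were not called. OAS2 spread from -0.47 for CMT-U309 to 5.18 for CMT-U27. In macrophages OAS3 also fell, with a mean of -1.05 (adjusted p = 0.0136), and OAS2 and EIF2AK2 were not called at their brightest probe.

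Of the genes of antigen presentation and the chemokines that interferon induces, 8 of 19 listed were matched to a probe, and 6 of them rose in the cancer cells. PSMB8, a subunit of the immunoproteasome, rose by a measured 4.84 ± 1.42 (SD, n = 5, adjusted p = 0.00307 in limma). Its mono-culture channel was well above background on only 3 of 10 cancer cell arrays, so the size is uncertain. Its partner PSMB9 rose by 2.40 ± 1.32 (adjusted p = 0.0202, lost without any line but CMT-W1). The MHC class I genes DLA88 and DLA-64 rose by 3.61 ± 0.75 and 3.26 ± 0.80, and the class II gene DLA-DRA by 3.90 ± 1.33. These MHC genes are closely related, and whether their probes tell them apart was not tested. CCL8, a chemokine that attracts monocytes, rose by 3.91 ± 0.59 (adjusted p = 0.000718). TAPBP, tapasin, had a mean of 1.14 (adjusted p = 0.0568).

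CXCL10, the interferon-induced chemokine that attracts T cells, was called in the macrophages and not in the cancer cells. In the macrophages it rose in every co-culture, by 4.78 with CMT-U27, 3.17 with CMT-U309, 4.04 with P114, 4.41 with CMT-W1 and 5.00 with CMT-W2, a mean of 4.28 ± 0.72 (SD, n = 5, adjusted p = 0.000127 in limma). In the cancer cells it ran from -0.30 for CMT-U27 to 6.91 for P114, with a mean of 3.35 that was not called (adjusted p = 0.0766). Its difference between the cell types, 0.93, was not called. CCL8 and TAPBP fell in the macrophages, by 2.24 (adjusted p = 0.0494, lost without P114, CMT-W1 or CMT-W2) and 0.99, and PSMB8, PSMB9, DLA88, DLA-64 and DLA-DRA were not called there at their brightest probe. Another DLA-64 probe was called lower (-1.86, adjusted p = 0.00225), against 0.02 at the brightest, and with median centring the brightest probes of DLA-64 (-0.95, adjusted p = 0.0348) and DLA88 (adjusted p = 0.0252) were called lower as well. At P114, where macrophage MX1 was lowest, the ratio was the lowest of the 5 co-cultures for 3 of the 18 pathway genes, among them PSMB8 (-2.83) and DLA-DRA (-2.25), and the highest for 4, among them OAS2 (0.84) and EIF2AK2 (0.94). DNM1, dynamin 1, the only member of the wider dynamin family matched to a probe, had a mean of 0.17 in cancer cells (adjusted p = 0.665) and fell by 0.92 in macrophages (adjusted p = 0.0322), a call that no leave-out of a line kept.

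**Figure D4:**
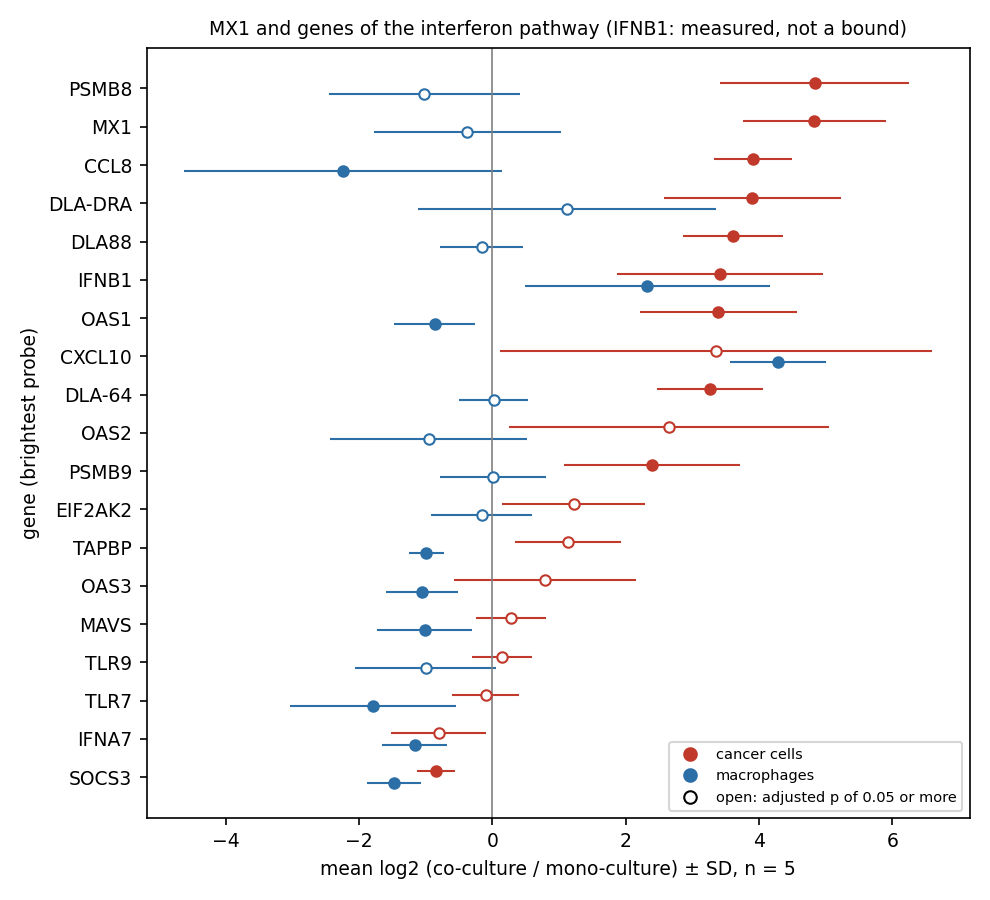
Mean log2 ratio of co-culture to mono-culture ± SD over 5 co-cultures (horizontal axis) for MX1 and 18 interferon pathway genes (vertical axis, brightest probe of each), in cancer cells (red) and macrophages (blue), with filled symbols where the adjusted p was under 0.05. MX1, at 4.83 in cancer cells and -0.38 in macrophages, sits beside PSMB8, whose cancer cell mono-cultures were well above background on only 3 of 10 arrays. IFNB1 (measured means) and CXCL10 are the genes with filled blue symbols to the right of 0.

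Among 699 other genes with a symbol that were tested in both cell types, those whose 10 ratios lay closest to MX1 were PLEK, PSMB8, CD40, SERPINA1 and PTGES. Their root mean square differences from MX1 were 1.04, 1.09, 1.19, 1.26 and 1.27 log2 units, with a median of 3.72 over all candidates. PLEK encodes pleckstrin, a protein kinase C substrate of platelets and leukocytes. Its mean ratio was 3.78 in cancer cells and -1.07 in macrophages, with its lowest macrophage value, -3.36, at P114. CD40, the costimulatory receptor of antigen-presenting cells, had means of 4.38 and 0.68. SERPINA1, alpha-1 antitrypsin, had 4.29 and -1.77, and it too was lowest with P114 in macrophages, at -4.55. PTGES, a prostaglandin E synthase, had 3.74 and -0.72. The likeness is a description over 10 ratios that share 5 co-cultures. For PSMB8 the cancer cell ratios rest on mono-culture signals that were mostly not well above background.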

How the data were processed

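The authors deposited the scanner output of Agilent Feature Extraction 10.7.3.1. Its intensity columns are processed spot signals on a linear scale, its log10 ratio column holds Cy5 over Cy3 after background subtraction and dye normalization, and other deposited columns (0 or 1) mark spots well above background, saturated or outlying. The authors' table of values on the log scale is that ratio up to its sign. Ratios were turned to log2 co-culture over mono-culture and averaged per dye-swap pair without outlier spots. Tested probes exceeded background clearly in either culture, on both arrays, in at least 3 of 5 co-cultures. limma 3.58.1 (R 4.3.3) fitted every probe, with Benjamini-Hochberg adjustment, and was tested on simulated data. Single-channel levels used Aquantile normalization of processed signals. Files were read with Python 3.11.15 (pandas 2.3.3, numpy 2.4.6). Probes were named through the gene table of UU_Cfam_GSD_1.0. A gene stands by its brightest probe. Members, lists and tests were chosen with earlier results of these data known. Named were MX1, MX2, every list gene matched to a probe except an item that is not reported here, and the 5 genes nearest to MX1. Populations sorted from the same co-culture are paired by design, and the correlation across probes of their deviations was 0.06 to 0.34. Alternatives were other background corrections, filters, single dyes, a dye term, slide and replicate blocks, the methods' t-test and each line left out.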

Additional observations from a re-analysis of the deposited data

Results flagged for a closer look

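The difference between the cell types in the response of MX1 to co-culture passed its own test. Macrophage minus cancer cell, the measured log2 ratio was -5.21 at the brighter probe and -5.83 at the dimmer. CMT-W1 at the brighter probe and 3 cancer lines at the dimmer give only bounds. No sample was flagged as standing out in the 12 groups of 5 MX1 ratios and levels examined, P114 in macrophages included. With only 5 values in a group, the absence of a flag does not show that P114 was like the rest. At the dimmer probe the macrophage ratio was -3.05 with P114, against -0.53 to 0.69 with the other lines.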

How the results depend on the processing

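The MX1 rise in cancer cells kept its direction in all 18 alternatives, from 3.49 to 5.07 at the brighter probe (4.41 to 5.07 with each line left out), and lost its call with normexp and loess (3.49, adjusted p = 0.0513) and with the methods' t-test (4.83, adjusted p = 0.127). The dimmer probe lost its call in the same settings (2.45, adjusted p = 0.0583, and 5.27, adjusted p = 0.127) and fell to 2.76 with median centring. normexp adds 50 to every signal, which by construction lowers ratios of dim spots. In macrophages no alternative brought a call, over -0.67 to 0.20 (-0.67 to 0.20 with each line left out), and the sign turned without P114, to 0.20 and, at the dimmer probe, 0.061 (range -0.87 to 0.061 with each line left out). The difference between cell types was -3.14 with the slide as a fixed block. With the co-culture as a replicate block it was -5.21 (adjusted p = 0.000418), and the block changed no MX1 call. Mono-culture levels kept their call in all 10 alternatives, and co-culture levels never gained one.

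The 3754 probes called in cancer cells became 82 with normexp and loess, 6 with the methods' t-test, 2076 with the co-culture in Cy5 alone, 11093 with 10 arrays and a dye term and 8947 with the slide as a random block, and 868 to 3175 with each line left out (868 without P114, 1209 without CMT-U27, 1831 without CMT-U309 and 2133 without CMT-W2). Of these calls 84.1% were higher after loess and 90.1% after median centring, which moved the median of all probes from -0.02 to 0.19 and left MX1 at 4.08. With median centring 7654 probes were called in macrophages and 4930 for the difference, where the slide as a fixed block gave 0. Of the latter 4930 calls 23.3% were higher in macrophages, against 4618 of 9641. Of the pathway genes, 3 rose in cancer cells with normexp and loess and 7 to 9 with each line left out. The single fall there, SOCS3, went to 0 with either normexp setting and with each line left out (0 to 0). In macrophages 4 fell with median centring and 4 with no filter on dim probes. There 1 rose with either normexp setting, with no filter and with the filter in all 5 co-cultures, and 1 to 2 with each line left out, since IFNB1 missed the filter without CMT-U27, CMT-U309 or P114, while DLA-DRA was called without P114. Causes were not tested.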
